A study of Ramazzottius varieornatus with 27 samples.

Results

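The comparison described here is that of whole animals of the tardigrade Ramazzottius varieornatus 15 h after 500 Gy of cobalt gamma ray with non-irradiated animals. Its members are the 3 libraries labelled h15 and the 3 labelled Ctrl, which are 6 of the 27 libraries of the series, and they were chosen by their labels alone. The other 21 libraries come from 4, 6, 9, 12, 18, 21 and 24 h after the same dose, with 3 libraries each. Each library holds the RNA of 30 animals. The control has no sampling time in the labels, so hours on the plate and hours after irradiation cannot be told apart in a comparison with it. The 3 libraries of a group are technical replicates by the series' own description. The p-values therefore measure only the spread between technical replicates, pooled over the 9 groups of the series. In RNA of whole animals, fewer cells of a type and less RNA per cell cannot be told apart.

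Ionizing radiation breaks DNA strands directly and through reactive oxygen species made from water, and cells answer with break repair, removal of oxidants and a stop of the cell cycle. Tardigrades withstand doses far beyond those that kill most animals, and in R. varieornatus the chromatin protein Dsup is known to shield DNA. None of the sources used here pairs the transcript IDs with gene names (0 of them matched the RefSeq gene table of the species). Named pathways could therefore not be matched, and transcripts are given by ID.

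The deposited values are TPM, a length-corrected share of each transcript in the library, multiplied by a TMM factor that scales the libraries to each other. They keep no read depth. Read numbers per library, which the study states, were not used here, and by those figures most 15 h libraries were sequenced less deeply than the controls. Transcripts listed above 0 numbered 12330, 11889 and 11826 in the 15 h libraries, against 13126, 13325 and 11556 in the controls, out of 14532. The replicates of a group were alike across transcripts, with Pearson's r of 0.952 to 0.958 between 15 h libraries and 0.947 to 0.972 between controls, where transcripts are not independent replicates. The median SD of log2(value + 1) was 0.246 at 15 h and 0.269 in the controls. It was highest at 9 h (0.413) and 18 h (0.380), whose spread also entered the pooled fit. By the methods, the 15 h libraries had as many PCR cycles as those of 9, 12, 18 and 21 h and more than those of 4 h, and the number for the controls is not stated under their name. Cycle number and irradiation therefore cannot be told apart between 15 h and control.

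Irradiated animals at 15 h had 337 transcripts above and 557 below their control levels, out of 12820 tested. Tested transcripts reached a value of 1 in 3 or more of the 27 libraries. A call needed limma's Benjamini-Hochberg adjusted p below 0.05, with all 27 libraries fitted together, and group means that differed more than 2-fold. The 894 called transcripts are 6.97% of those tested, with 2.63% higher and 4.34% lower. At an unadjusted p under 0.05 there were 4050, and 2957 transcripts had a ratio of means over 2 in either direction before any test.

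Among the called transcripts, most rises were small and the falls had the larger median. The median log2 fold change, on the log2(value + 1) scale, was 1.13 for the higher transcripts (middle 50% from 1.05 to 1.29) and -1.44 for the lower ones (from -1.19 to -1.84). Among the higher transcripts, 293 of 337 had a ratio of means between 2 and 4, and 30 had a ratio over 8. Among the lower ones 387 of 557 lay between 2 and 4, and 82 were over 8. The median level of the higher transcripts was 64.2 at 15 h and 26.9 in the controls, and that of the lower ones was 27.8 at 15 h and 80.0 in the controls (TMM-normalized TPM). The median standard error of the log2 difference was 0.22 for the higher and 0.364 for the lower transcripts. A larger change was thus needed for a call among the lower ones. The sizes also depend on the scaling, as the median log2 difference of all transcripts tested moved from -0.033 to 0.098 without the TMM factor. As the called transcripts were picked by the same contrast, their values are a description and no test applies to them.

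**Figure D1:**
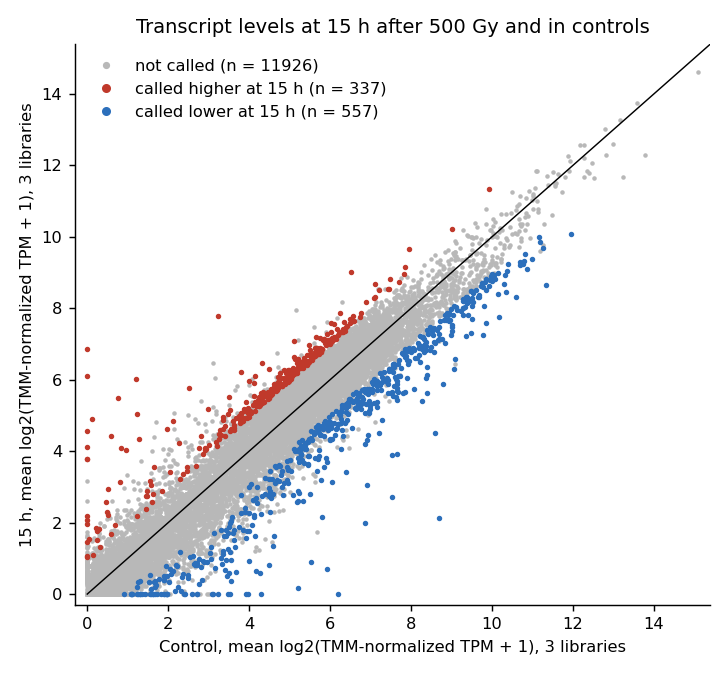
Each point is 1 of the 12820 transcripts tested, at its mean log2(TMM-normalized TPM + 1) over the 3 libraries of 15 h (vertical axis) and of the controls (horizontal axis), with the line of equal values in black. The 337 transcripts called higher lie above the line, 293 of them at a ratio of 2 to 4, and the 557 called lower lie below it, some of them at 0 at 15 h.

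In the libraries themselves, 330 of the 337 higher transcripts had every 15 h value above every control value, and 546 of the 557 lower ones had every 15 h value below every control value. Over all transcripts tested, 21.4% were wholly above and 20% wholly below in this way, so separation of the libraries was common also among transcripts that were not called. The median of the higher transcripts stood 1.25, 1.10 and 1.11 above the control mean in 15 h replicates 1, 2 and 3 on the log2 scale. In control replicates 1, 2 and 3 it stood at 0.073, -0.22 and 0.14, so control replicate 2 was the lowest. The median of the lower transcripts was -1.39, -1.40 and -1.51 in the 15 h libraries, and 0.010, -0.042 and 0.021 in the controls.

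The number of rises moved with single controls. Without control replicate 2, 194 transcripts were called higher and 413 lower, and without control replicate 3, 444 were higher and 438 lower. With each of the 6 libraries left out in turn, 363 of the 894 transcripts (118 higher and 245 lower) were called in the same direction every time. The balance of rises and falls changed with the scaling and with the fold threshold. When the TMM factor was undone by setting all library sums equal, 658 transcripts were higher and 395 lower, so the share of higher calls was 62.5%, against 37.7% with TMM. With TMM kept and calls made by the adjusted p alone, 1639 were higher and 958 lower by limma, so that 63.1% were higher. All 337 higher transcripts and 394 of the 557 lower ones were called under both scalings. The median log2 difference of all transcripts tested was -0.033 with TMM and 0.098 without, and no transcript was called in opposite directions under the 2 scalings.

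Called transcripts were found at every level of expression. When the 12820 transcripts were split into 4 bins of equal size by their mean over all 27 libraries, the bin of lowest level (up to 3.09) had 21 higher and 99 lower calls, which is 0.655% and 3.09% of its 3205 transcripts. The second bin had 72 higher and 142 lower, and the third 120 and 119. The highest bin (from 68.8) had 124 higher and 197 lower calls, 3.87% and 6.15% of its transcripts. The median standard error of the log2 difference was 0.532 in the lowest bin and 0.177 in the highest, so a change of the same size was harder to call among low transcripts.

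The lower transcripts held a smaller share of the summed values at 15 h than in the controls. They summed to 5.04%, 5.18% and 4.94% of the library sum in 15 h replicates 1, 2 and 3. In the controls they summed to 12.1%, 12.1% and 12.3%. The higher transcripts summed to 3.48%, 3.42% and 2.99% at 15 h, against 1.20%, 1.13% and 1.34% in the controls. As both sets were picked by the contrast of these same libraries, the direction of these differences followed from the choice. The shares describe size only, and no test applies to them. Among the lower transcripts, the 10 that lost most gave 18.8% of the 7.12 percentage points lost. It took 53 of the 557 to reach 50% of this loss.

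**Figure D2:**
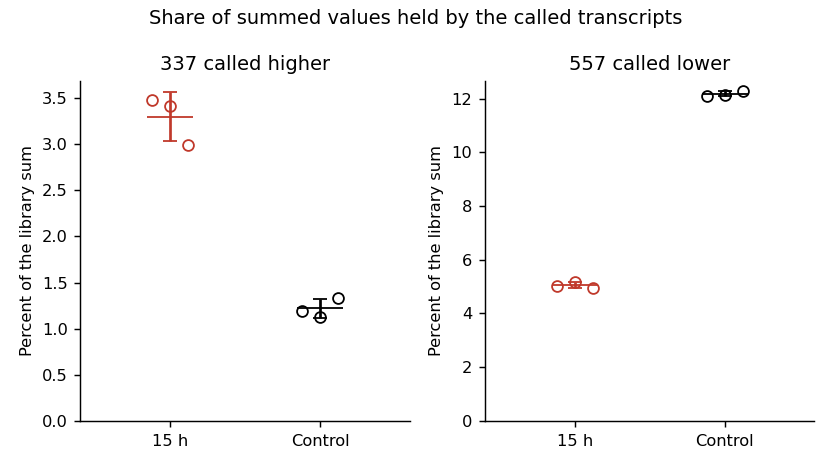
Share of the summed values of a library, in percent, held by the 337 transcripts called higher (left panel) and the 557 called lower (right panel), with 15 h in red and controls in black. Circles are libraries, horizontal lines are means and bars are the SD of 3 libraries. The lower transcripts hold about 5.05% at 15 h and 12.2% in the controls. Both sets were picked by the contrast of these same libraries, so the direction of the differences followed from the choice.

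Among the most abundant transcripts, falls outnumbered rises. Of the 1000 with the highest mean over all 27 libraries, 126 were called lower and 23 higher at 15 h, where 4.34% and 2.63% of all transcripts tested were. Without the TMM factor 79 of the 1000 were lower and 50 higher, and by the adjusted p alone 286 were lower and 167 higher, so falls also outnumbered rises there. Their summed share was 55.2% ± 1.11 at 15 h and 59.8% ± 0.459 in the controls (SD, n = 3 each). Of the 100 most abundant by the same measure, 7 were lower and 1 was higher. Taken by their control level instead, which favours falls, 18 of the 100 most abundant were lower and 0 were higher, with a median log2 difference of -0.44.

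Some transcripts were listed at 0 throughout one group. Of the 14532 transcripts, 11 had every control at 0 and every 15 h library at 1 or more, and 9 of these were called. In 29 transcripts every 15 h library was at 0 and every control at 1 or more, of which 23 were called. Over all transcripts tested, 2.63% were called higher and 4.34% lower. Transcripts picked as separated in these same 6 libraries are favoured for a call, so nothing is read from the counts called. The control mean of these 29 had a median of 6.13 and reached 76.7. As TPM keeps no depth, a value of 0 says only that the transcript was listed at 0, and the part of the shallower sequencing of most 15 h libraries in these counts was not tested. Among these 29, those above 0 in at least 1 library of another time numbered 28 (4 h), 29 (6 h) and 19 (9 h). For 12, 18 and 21 h this count was 22 each, and for 24 h it was 15, so it did not fall steadily. Depth also differed between these groups by the study's figures, with 24 h the shallowest, and its part was not tested.

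Individual transcripts are named as the pairs with the largest rise and the largest fall among called transcripts of genes with a single transcript model, with groups that do not overlap and a mean of at least 10 in the higher group. The transcript g9628.t1 had values of 330, 171 and 184 in the 15 h libraries, against 41.4, 0 and 18.5 in the controls. Every 15 h library was above every control, and the controls were spread widely. By limma its log2 fold change was 4.54 with a standard error of 1.42 (adjusted p = 0.0262). With a control at 0 this size depends on the pseudocount, and it was 5.68 with a pseudocount of 0.1 (limma adjusted p = 0.0772). The 12 h libraries had 314, 408 and 477, and the 18 h libraries 373, 239 and 61.4. Its call was lost without control replicate 2 (log2 fold change 2.93, limma adjusted p = 0.195) and without any one of the 15 h libraries (limma adjusted p = 0.0512 to 0.0848).

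The transcript g5086.t1 was at 55.7, 37.5 and 5.14 at 15 h and listed at 0 in each control (limma adjusted p = 0.0411). No fold change is given against controls at 0. It was listed at 0 in 2 of the 3 libraries of 18 h and 1 of the 3 of 24 h, where the others reached 160, so it varied widely between replicates. Its limma adjusted p was 0.146 without 15 h replicate 1, 0.114 without 15 h replicate 2 and 0.0866 to 0.0996 without a control.

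The transcript g5285.t1 was listed at 0 in each 15 h library, against 74.6, 46.9 and 108 in the controls (limma adjusted p = 0.00169). The 4 h libraries had 24.6, 38.2 and 25.0, and it was listed at 0 in every library of 12, 18 and 24 h. A single library after 6 h stood high, 9 h replicate 1 at 120. The transcript g5502.t1 was at 0, 0.427 and 0 at 15 h, against 30.2, 37.3 and 40.8 in the controls. By limma its log2 fold change was -5.03 with a standard error of 0.935 (adjusted p = 0.000578). With 15 h values at or near 0 this size depends on the pseudocount, and it was -7.69 with a pseudocount of 0.1. The 12 h libraries had 24.5, 5.73 and 3.91, and the 18 h libraries 9.60, 33.9 and 3.18. It was thus listed lower at 15 h than in every library of 12 and 18 h, while its differences between these times did not pass the test (adjusted p = 0.428 for 15 h against 18 h, limma).

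The transcript g12777.t1 was near its control level at 15 h and lower than at 4, 6 and 9 h. It had 256, 313 and 247 at 15 h, against 250, 291 and 257 in the controls, a log2 difference of 0.026 (95% interval -0.417 to 0.47, limma adjusted p = 0.958). The 4 h libraries had 729, 678 and 692, and the log2 difference of 15 h from 4 h was -1.37 (standard error 0.214, limma adjusted p = 0.000463). It had 638, 580 and 577 at 6 h and 809, 542 and 587 at 9 h, and the log2 difference of 15 h was -1.14 from 6 h (limma adjusted p = 0.00666) and -1.23 from 9 h (limma adjusted p = 0.0177). The 12 h libraries, at 342, 311 and 400, gave no call against 15 h (log2 difference -0.37, standard error 0.214).

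**Figure D3:**
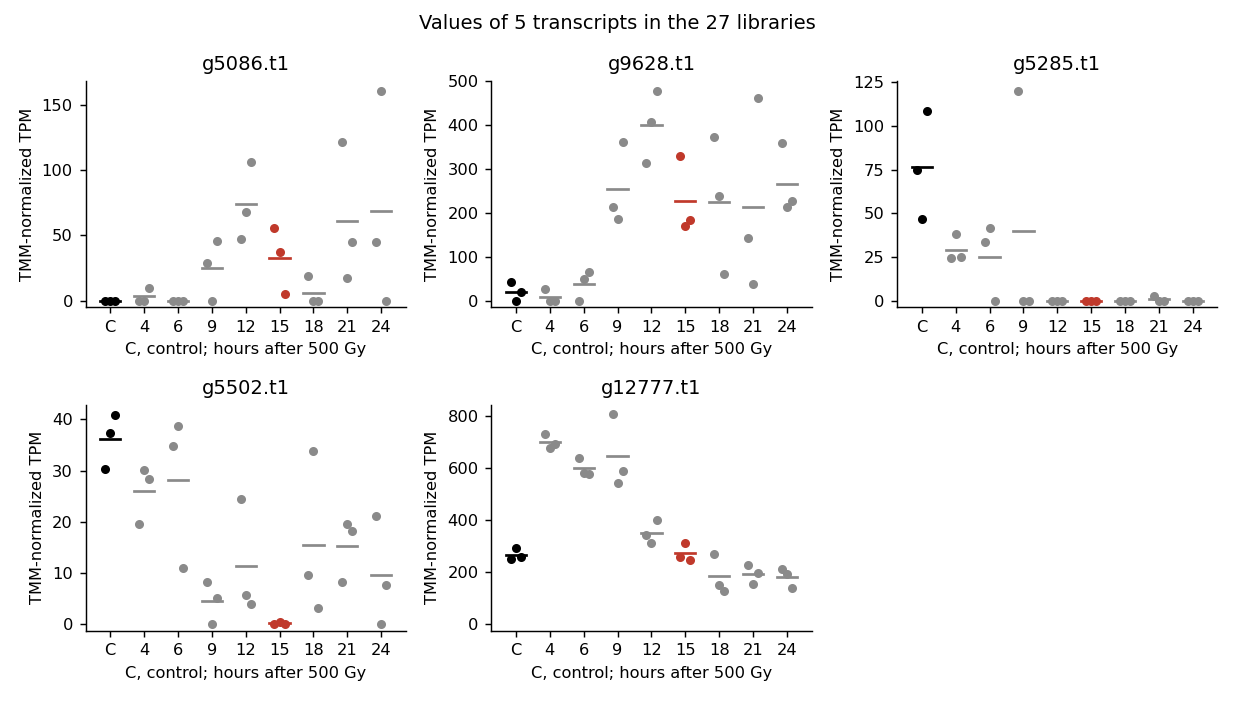
Values (TMM-normalized TPM) of 5 transcripts in the 27 libraries, with controls in black, 15 h in red and other times in grey, as points per library and lines at the group mean, against hours after 500 Gy. The transcripts g9628.t1 and g5086.t1 are higher at 15 h than in the controls, g5285.t1 and g5502.t1 are at or near 0 at 15 h, and g12777.t1 at 15 h lies among the control values of 250 to 291 or near them.

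Of the 13920 genes of the table, 551 had more than 1 transcript model, among which RSEM divides shared reads. The 947 tested transcripts of such genes were called in 6.44%, against 7.02% of the transcripts of single-model genes. With values summed over the models of a gene, 905 of 12368 genes were called (7.32%), with 323 higher (2.61%) and 582 lower (4.71%), and without the TMM factor 663 were higher and 404 lower. Of 50 genes with at least 2 tested models and exactly 1 of them called, 20 were also called on the sum and 30 were not.

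In 3 of the 428 genes with at least 2 tested models, 1 model was called higher and another lower. These 3 genes are named here after their values were seen. For gene g8602, model t1 was listed at 0 in every 15 h library, against 6.44, 7.00 and 9.47 in the controls, while model t2 was at 4.11, 6.15 and 1.59 at 15 h and listed at 0 in every control. For gene g10660, model t2 was at 116, 97.7 and 128 at 15 h, against 57.8, 46.7 and 32.3 in the controls, while t1 was at 5.82, 0 and 0 at 15 h, against 12.2, 11.9 and 22.6. For gene g10086, model t1 was at 44.0, 41.7 and 36.6 at 15 h, against 18.8, 11.4 and 21.2 in the controls, while t2 was listed at 0 at 15 h and was at 6.66, 6.78 and 0 in the controls. The sums of the models did not reach a call in any of the 3 genes. For g10660 and g10086 the sum passed limma's test but not the 2-fold threshold, with log2 differences of 0.91 (adjusted p = 0.000201) and 0.89 (adjusted p = 0.000886). For g8602 it did not pass the test (log2 difference -0.91, limma adjusted p = 0.331). In a single gene, g6538, also named after its values were seen, both models were called in 1 direction. Model t1 was at 138, 119 and 136 at 15 h, against 391, 370 and 401 in the controls, and t2 was at 89.4, 65.9 and 106, against 242, 255 and 230.

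By the medians of each group, the transcripts called at 15 h stood further from the control mean from 9 h to 24 h than at 4 h and 6 h. The median log2 difference from the control mean of the 337 higher transcripts was 0.32 at 4 h and 0.69 at 6 h. It reached 1.14 at 9 h and 1.15 at 12 h, was 1.13 at 15 h itself, and then stood at 1.27 (18 h), 1.20 (21 h) and 1.18 (24 h). That of the 557 lower ones was -0.49 at 4 h and -0.70 at 6 h. It reached -1.21 at 9 h and -1.46 at 12 h, was -1.44 at 15 h itself, and then stood at -1.55 (18 h), -1.38 (21 h) and -1.23 (24 h). The 6 h libraries differed among themselves. The median of the higher transcripts was 0.47, 0.60 and 1.00 in 6 h replicates 1, 2 and 3, and that of the lower ones -0.42, -0.58 and -1.05, so replicate 3 stood nearest to the later times. By the methods it is also the one 6 h library with as many PCR cycles as those of 9 to 21 h, and the part of cycle number was not tested. All of these differences share the 3 control libraries, which also chose the transcripts, so they are given side by side with no test.

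**Figure D4:**
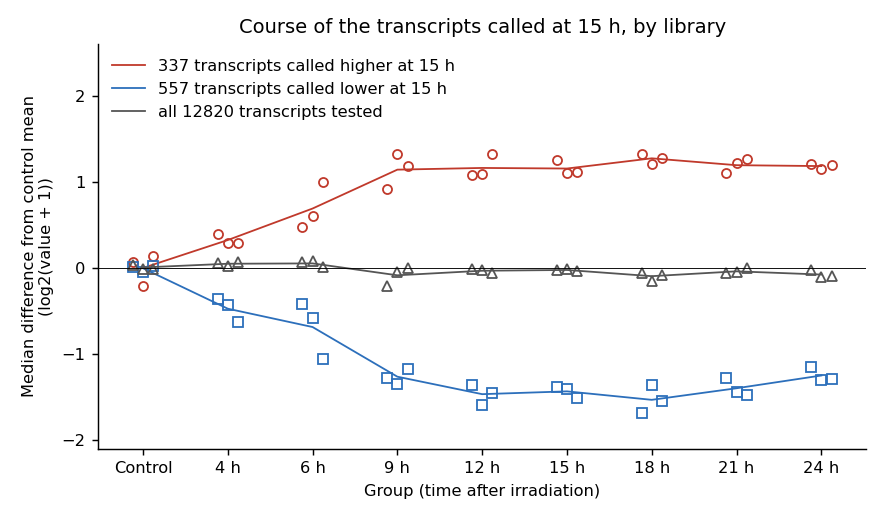
Median difference from the control mean on the log2(value + 1) scale, per library, of the 337 transcripts called higher at 15 h (red circles), the 557 called lower (blue squares) and all 12820 tested (grey triangles), by group. Lines join the means of 3 library medians. The red and blue symbols move apart between 4 h and 9 h and stay apart to 24 h, and at 15 h they sit at 1.10 to 1.25 and at -1.51 to -1.39.

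Set directly against the other times, 15 h gave the most calls against 4 h and 6 h. Calls were few against 9 h and 24 h, and 0 against 12, 18 and 21 h. Against 4 h, 405 transcripts were called (3.16% of those tested), 118 higher and 287 lower at 15 h. The higher ones had a median level of 68.7 at 15 h and 24.1 at 4 h, and the lower ones 37.7 at 15 h and 100.1 at 4 h. Of the transcripts called against the controls, 85 of the 337 higher and 172 of the 557 lower ones also passed the test in the same direction against 4 h, where 0.92% and 2.24% of all transcripts did. The 15 h libraries entered both comparisons and nothing is read from these counts. The number called against 4 h was 258 without 4 h replicate 2. The balance turned by the adjusted p alone, with 909 higher and 520 lower at 15 h, and without the TMM factor, with 234 higher and 210 lower.

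Against 6 h, 198 transcripts were called (1.54%), 115 higher (0.897%) and 83 lower (0.647%) at 15 h. The 115 had a median level of 59.8 at 15 h and 15.7 at 6 h, and their median level in the controls was 50.3. Their median log2 difference from the controls was -1.56 at 6 h and 0.34 at 15 h. As the 6 h libraries also picked these 115 transcripts, low values at 6 h were favoured by the choice. Nothing is read from this difference. The 6 h and 15 h libraries decided the number of calls against 6 h. Leaving out 6 h replicate 1 gave 96 calls (75 higher and 21 lower) and leaving out 6 h replicate 2 gave 43 (21 and 22). Leaving out 6 h replicate 3 gave 249, and the balance turned to 106 higher and 143 lower. With library weights it turned as well, at 329 higher and 535 lower, and so it did with only the 6 h and 15 h libraries in the fit, at 67 and 89. Leaving out 15 h replicates 1, 2 or 3 in turn gave 67, 69 and 72.

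Against 9 h, 33 transcripts were called (0.257%), 18 higher (0.14%) and 15 lower (0.117%) at 15 h. At an unadjusted limma p under 0.05 there were 2022 against 9 h, near the 1979 against 6 h. There were 3048 against 4 h and 1540 against 24 h, so few calls do not place 9 h nearer to 15 h than 6 h. Without 9 h replicate 1, the library with the fewest transcripts above 0 in the series (9575), limma called 0. Leaving out 9 h replicate 3 gave 153 calls, and leaving out 15 h replicates 1, 2 or 3 in turn gave 2, 5 and 6. Against 12, 18 and 21 h, limma called 0 transcripts, with 608, 960 and 684 at an unadjusted p under 0.05. The exceptions with a library left out were 39 calls against 18 h without 18 h replicate 1, and 1 call each without 12 h replicate 2 (against 12 h) and without 15 h replicate 3 (against 18 h).

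A lack of calls between 15 h and its neighbours does not show equal levels. The 95% interval of the difference in log2(value + 1) was set against a 2-fold change of value + 1. Between 15 h and 12 h it lay wholly within this range for 6890 of the 12820 transcripts (53.7%). It did so for 6618 (51.6%) against 18 h and 6870 (53.6%) against 21 h. For the other transcripts the interval reached past the range in at least 1 direction. Against the controls it lay within the range for 4822 transcripts (37.6%). For transcripts near 0 this range allows larger ratios of the values themselves. The median absolute log2 difference was 0.194 against 12 h, 0.208 against 21 h, 0.238 against 18 h and 0.44 against the controls. It was 0.272 against 24 h, 0.288 against 6 h, 0.305 against 9 h and 0.372 against 4 h.

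**Figure D5:**
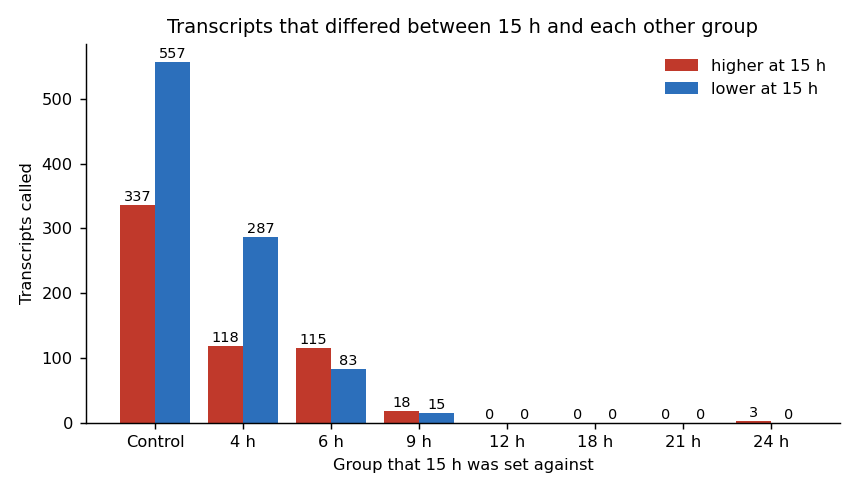
Number of transcripts called higher (red) and lower (blue) at 15 h against each other group, by limma at an adjusted p below 0.05 and more than a 2-fold difference of means. The bars stand at 337 and 557 against the controls, at 18 and 15 against 9 h and at 0 against 12, 18 and 21 h.

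Against 24 h, 3 transcripts were called (0.0234%), all higher at 15 h, and they are named here because the count is small. The transcript g8902.t1 was at 40.1, 38.5 and 47.3 at 15 h, against 2.17, 11.6 and 1.85 at 24 h, with a log2 difference of 3.14 ± 0.493 (standard error, limma adjusted p = 0.0281). Its control values of 31.3, 55.4 and 39.6 overlapped those of 15 h. The transcript g10895.t1 was at 57.8, 84.8 and 42.1 at 15 h, against 19.0, 19.8 and 21.7 at 24 h (limma adjusted p = 0.0424), with 96.5, 101 and 114 in the controls. The transcript g3917.t1 was at 2.41, 2.70 and 2.62 at 15 h and listed at 0 in each 24 h library, and it was the only one of the 3 called higher at 15 h than in the controls (0.593, 0 and 0). No transcript was called without 15 h replicate 1 or without 15 h replicate 2, and 1 without 15 h replicate 3. Leaving out 24 h replicate 1 gave 28 calls and leaving out 24 h replicate 2 gave 17. With 9 h replicate 1 and 18 h replicate 2 both left out, the libraries of lowest weight in the series, there were 49.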

How the data were processed

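Reads were aligned by the authors to R. varieornatus coding sequences (bowtie2), turned into TPM per transcript (RSEM) and scaled between libraries (TMM). The signal deposited is this scaled TPM, for 14532 transcripts and 27 libraries, with column sums between 891312 and 1140371. They are not counts and keep no depth. Counts and read numbers that the study gives elsewhere were not used here, so no count test was run. Groups came from the sample titles. The values, as log2(value + 1), were fitted with limma 3.58.1 in R 4.3.3 (9 group means, variance trend, p adjusted by Benjamini-Hochberg over 12820 transcripts in each comparison), and the fit was tested on simulated data. The ratio of means over 2 follows the study's fold threshold. The 8 comparisons were 15 h against the controls and against 7 other times. Intervals cover 95%. Plots used matplotlib 3.10.9 under Python 3.11.15.

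Alternatives were a pseudocount of 0.1, no filter, a filter at 5, library weights, 2-group fits, values with the TMM factor undone, calls by p alone, a fold threshold on log values, sums over models, a replicate block, and the removal of each library in turn. Leaving out 9 h replicate 1 and 18 h replicate 2 was chosen after seeing the data. The members, lists and rules were chosen with earlier results of these data known. The rule for the named transcripts took the pair of largest log2 changes in each direction (single-model genes, libraries not overlapping, mean of at least 10), and g12777 was added by its ID. The study's own statistics and enrichment tables hold its findings and were not used. No nucleotide sequence of the transcripts was used here.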

Additional observations from a re-analysis of the deposited data

Results flagged for a closer look

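Levels at 15 h differed from those at some other times after the same dose, by a direct test of the 2 times in the limma fit, in which the controls cancel. Between 15 h and 4 h 405 transcripts differed, 118 of them higher and 287 lower at 15 h. Between 15 h and 6 h 198 differed, 115 higher and 83 lower at 15 h. Between 15 h and 9 h 33 differed, 18 higher and 15 lower at 15 h, and without 9 h replicate 1 there were 0. Between 15 h and 24 h 3 differed, all higher at 15 h, and 0 without 15 h replicate 1. The methods give fewer PCR cycles for every 4 h library and for 6 h replicates 1 and 2 than for 15 h, and more for 24 h. The part of cycle number in these differences was not tested.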

How the results depend on the processing

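The count against the controls (894) was 2597 with no fold threshold (1639 higher and 958 lower) and 1349 with library weights (412 and 937), and 607 to 882 with a library left out. With the values summed over models (905) it was 608 to 900. No called transcript was called in the opposite direction under any alternative, and 330 (117 higher and 213 lower) were called under each of the 16. With no fold threshold the counts were 1429 against 4 h (909 higher and 520 lower), 349 against 6 h and 54 against 9 h. With library weights they were 783 against 4 h, 864 against 6 h (329 higher and 535 lower), 131 against 9 h, 1 against 12 h and 0 against 24 h. With only the 2 groups compared in the fit, the count against the controls was 1040 (332 higher and 708 lower). The counts were then 615 against 4 h, 2 against 9 h, 1 against 12 h and 0 against 24 h. Without 9 h replicate 1 and 18 h replicate 2, which are outside that comparison, the count against the controls was 1128 (377 higher and 751 lower). The other counts were 539 against 4 h, 287 against 6 h and 49 against 24 h. With a library left out the counts ran from 258 to 373 (4 h), 43 to 249 (6 h), 0 to 153 (9 h), 0 to 1 (12 h), 0 to 39 (18 h) and 0 to 28 (24 h), and stayed at 0 against 21 h. With calls made without the TMM factor, the higher transcripts held 6.04% of the library sum at 15 h and 2.51% in the controls, and the lower ones 3.19% at 15 h and 8.57% in the controls. The call of g9628.t1 was lost in 7 of 13 alternatives and that of g5086.t1 in 5 of 13, while g5285.t1 and g5502.t1 kept theirs in all 13. The cause of these changes was not tested. Depth, which the values do not keep, was not set against any result.

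No pairing by replicate number was seen between the 15 h and control libraries. The deviations of same-numbered 15 h and control libraries correlated at -0.055, 0.0997 and -0.010. Those of differently numbered ones correlated at -0.108 to 0.132. Other groups were not compared in this way. With a replicate block 887 transcripts were called against the controls (335 higher and 552 lower) and 1 against 24 h, and the block moved no other count by over 1.5 times.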

Other observations

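The numbers in the gene IDs allow a further description. Of the 556 genes with a transcript lower at 15 h, 506 had a tested gene under the next number, and in 49 of these (9.68%) that gene was also lower, while 4.50% of all tested genes were. The longest run of consecutive numbers held 5 lower genes. Among the 337 genes with a transcript higher at 15 h, the gene under the next number was also higher in 14 of 309 (4.53%), while 2.73% of all tested genes were. Whether consecutive numbers are neighbours in the genome was not tested, and no test was made of these shares.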
